A study of Mus musculus with 9 samples.

Results

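The 56 histone gene peaks described here are the regions of ZEB1 CUT&RUN signal beside the numbered histone genes of the mouse, out of 23623 consensus peaks in all. A peak was included where its interval lay within 1 kb of a protein-coding gene whose symbol starts H1f, H2ac, H2bc, H3c or H4c followed by a number, in the gene table of build GRCm38.p6. The choice used the presence of a peak over IgG in these same libraries, so presence and height are given below as a description with no test. Of 67 genes with such a symbol, 60 had a peak. ZEB1 is a DNA-binding repressor best known for silencing epithelial genes. In CUT&RUN an antibody brings a nuclease to the protein, and the fragments released are sequenced. The cells were PB3, a mouse breast cancer line that the labels call negative for the oestrogen and progesterone receptors and for HER2. The control was the parental line without drug (2 libraries), and the treated cells were kept in eribulin, an inhibitor of microtubule growth, at 300 nM for 24 h (2 libraries), 48 h (2 libraries) or 72 h (2 libraries). A single library made with IgG served as background for the peak lists and has no counts here, and the labels name no other agent or allele in any group. The comparisons ask where ZEB1 signal differs between untreated cells and cells kept in the drug.

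Histones are the proteins that DNA is wrapped around: H2A, H2B, H3 and H4 form the core of the nucleosome, and H1 binds the linker DNA between cores. Most core and linker histone genes exist in many near-identical copies packed into clusters, lack introns, and are transcribed mainly while DNA is being replicated, with messages that end in a stem-loop in place of a poly(A) tail. H2A and H2B genes often lie as divergent pairs that share a promoter. H1f0 stands apart as a linker histone gene outside the clusters that is not tied to DNA replication and is known to accumulate in resting and differentiated cells.

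The upstream sequences below set the promoters of 3 genes whose peaks fell beside those of 3 genes whose peaks did not pass or behaved differently. Each is the 250 bases before the gene's start in the RefSeq promoter table of GRCm38.p6, written 5′ to 3′ on the gene's own strand. Capitals mark exact matches on either strand. The motifs searched were the CCAAT box, the TATA box written as TATAAA, the octamer known from histone H2A and H2B promoters, written as ATGCAAAT, and an E-box form that ZEB1 is known to bind, written as CACCTG. Each was also searched as its reverse complement, and matches of different motifs could overlap. The first 3 are H2ac15 (chr13:21753913-21754162, minus strand), H2ac4 (chr13:23750838-23751087, plus strand) and H3c13 (chr3:96268404-96268653, plus strand). The last 3 are H4c12 (chr13:21750554-21750803, minus strand), H4c2 (chr13:23756687-23756936, plus strand) and H1f0 (chr15:79027962-79028211, plus strand).
H2ac15: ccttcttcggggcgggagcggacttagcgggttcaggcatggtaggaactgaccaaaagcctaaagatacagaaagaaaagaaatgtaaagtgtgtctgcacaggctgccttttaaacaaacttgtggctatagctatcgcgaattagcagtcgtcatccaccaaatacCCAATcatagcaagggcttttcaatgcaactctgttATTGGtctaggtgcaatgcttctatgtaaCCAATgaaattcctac
H2ac4: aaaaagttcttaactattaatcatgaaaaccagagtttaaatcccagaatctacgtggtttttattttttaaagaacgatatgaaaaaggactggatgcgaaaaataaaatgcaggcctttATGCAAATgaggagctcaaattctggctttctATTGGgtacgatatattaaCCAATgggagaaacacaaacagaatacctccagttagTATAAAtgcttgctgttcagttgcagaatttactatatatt
H3c13: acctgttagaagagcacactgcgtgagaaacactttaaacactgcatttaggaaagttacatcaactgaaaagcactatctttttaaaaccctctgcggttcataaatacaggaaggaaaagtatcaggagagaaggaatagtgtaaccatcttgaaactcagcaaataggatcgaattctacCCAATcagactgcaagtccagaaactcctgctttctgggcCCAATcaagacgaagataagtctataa
H4c12: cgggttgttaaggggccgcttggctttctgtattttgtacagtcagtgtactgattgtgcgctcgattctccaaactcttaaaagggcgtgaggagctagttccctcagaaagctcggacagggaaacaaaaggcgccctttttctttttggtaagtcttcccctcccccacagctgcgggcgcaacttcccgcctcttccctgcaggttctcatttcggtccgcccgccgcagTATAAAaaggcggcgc
H4c2: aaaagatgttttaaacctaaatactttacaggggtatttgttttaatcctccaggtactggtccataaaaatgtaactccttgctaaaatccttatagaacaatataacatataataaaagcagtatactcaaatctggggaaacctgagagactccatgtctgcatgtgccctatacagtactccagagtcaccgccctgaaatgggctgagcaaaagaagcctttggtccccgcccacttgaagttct
H1f0: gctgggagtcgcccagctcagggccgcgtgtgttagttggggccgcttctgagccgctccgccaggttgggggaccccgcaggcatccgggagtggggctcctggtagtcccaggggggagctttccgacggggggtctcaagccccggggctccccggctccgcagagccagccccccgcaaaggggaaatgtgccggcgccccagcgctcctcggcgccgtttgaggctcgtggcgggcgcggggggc
The printed H2ac4 stretch holds 2 matches to CCAAT together with an octamer and TATAAA, the H4c12 stretch holds TATAAA alone, and the H4c2 and H1f0 stretches hold none of these letters.

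Promoter windows of 300 bases (250 before the start and 50 after it) were found for 62 of the 67 genes, 63 windows in all, and were set against all 21262 windows of the table. CCAAT was in 52 of 63 histone windows (82.5%) and in 38.2% of all windows. It was in 17 of 17 H2A, 15 of 15 H2B and 10 of 10 H3 windows, but in 3 of 11 H4 and 7 of 10 H1 windows. The H2A and H2B windows include those of H2ac22, H2bc22, H2ac8 and H2bc8, whose peaks did not pass. TATAAA was in 34 of 63 (54.0%) against 12.6% of all. The octamer was in 13 of 63 (20.6%) against 1.66%, and these 13 were 6 H2A and 7 H2B windows. CACCTG was in 9 of 63 (14.3%), against 19.7% of all windows. Median GC content was 45.7% in histone windows and 56.3% in all. A match says only that these letters are present, and whether any motif goes with a fall was not tested.

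Counts in all consensus peaks summed to between 326944 and 765015 per library, and the controls held 372896 and 672582. The 56 histone peaks together took 2060 and 3698 of the control counts and between 1333 and 3024 counts in a treated library. Levels are given as CPM, counts scaled to a library total of 1000000 after TMM normalization. Replicate libraries differed from each other by no more than about sampling noise, with a chi-square per degree of freedom between 0.931 (control) and 1.06 (48 h). The labels do not say whether replicates were separate cultures, so a p-value here reflects only how much these particular libraries vary. The controls are common to every comparison with control, and no added DNA was used for scaling, so a change is measured against all other peaks of its library. Unless said otherwise, log2 fold changes, standard errors (SE) and Benjamini-Hochberg adjusted p-values are from edgeR's quasi-likelihood test over 21192 tested peaks, and a peak is called to have fallen or risen at an adjusted p below 0.05.

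The histone peaks lay in 3 dense groups and at H1f0. The first stretch of chromosome 13, 21715711 to 22043658, held 22 of the genes and 21 peaks, and each of its genes had a peak. The second stretch of chromosome 13, 23531044 to 23934913, held 31 genes and 25 peaks, and 27 of its genes had one. The group on chromosome 3, 96219885 to 96270192, held 10 genes in 50.3 kb with 8 peaks, and each gene had a peak. H1f0 on chromosome 15 had 2. No gene symbol on chromosome 11 meets the rule. The 7 genes without a peak were H1f1, the germline linker histone genes H1f6, H1f7 and H1f8, H1f10, and the testis genes H2ac1 and H2bc1. By class, 16 of 17 H2A, 15 of 16 H2B, 12 of 12 H3, 12 of 12 H4 and 5 of 10 H1 genes had a peak. Of all 21896 protein-coding genes, 44.0% had a peak within 1 kb, against 89.6% of these histone genes, whose intervals are short and lie close together. The gene's start was inside a peak for 48 of the 62 histone genes with a promoter entry (77.4%) and for 4714 of 17429 other genes (27.0%).

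Histone peaks were wider than most. Their median width was 817 bp (21 to 2428 bp) against 347 bp for all consensus peaks. In the authors' peak lists, 1 per group, 53 of the 56 were in the control list, 40 at 24 h, 37 at 48 h and 39 at 72 h. These are 94.6%, 71.4%, 66.1% and 69.6%, against 78.7%, 63.0%, 60.2% and 51.6% of all consensus peaks, whose lists also held fewer after treatment. There were 32 in every list (57.1%, against 34.7% of all consensus peaks) and 11 in the control list alone (19.6%, against 18.98%). The authors' median fold over IgG was 8.93, 8.03, 9.66 and 8.15 in the control, 24, 48 and 72 h lists, against 7.14, 7.43, 8.92 and 6.82 for all peaks. Per length, the median histone peak held 82.5 CPM per kb over the 8 libraries and the median of all consensus peaks 95.7. The highest signal per length on chromosome 13 was the H2bc14 peak with 161 CPM per kb, that on chromosome 3 was the second H2ac21/H2ac20/H2bc21 peak with 90.2, and the second H1f0 peak held 209. The limit of 1 kb cut through a few neighbours: the H2ac6 peak lay 880 bp from its gene (mean change -0.45 on the log2 scale) and the H3c6 (b) peak 661 bp (-0.62), while peaks 1048 bp from H2ac4 (-0.13) and 1057 bp from H2ac24 (-0.57) were left out.

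ZEB1 signal at histone genes was lower in eribulin than in untreated cells, and it was so at each time. The summed signal of the 56 peaks was 5665 and 5653 CPM in the controls, 3890 and 4125 after 24 h, 3883 and 3687 after 48 h, and 4126 and 4181 after 72 h. All 6 treated libraries lay below both controls, and the group means were 70.8%, 66.9% and 73.4% of the control mean. As a share of a library's counts the peaks went from 0.552% and 0.550% to between 0.363% and 0.408%. A sum over chosen peaks was given no test, and 11 of the 56 were in the control list alone, a choice that favours the control.

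**Figure D1:**
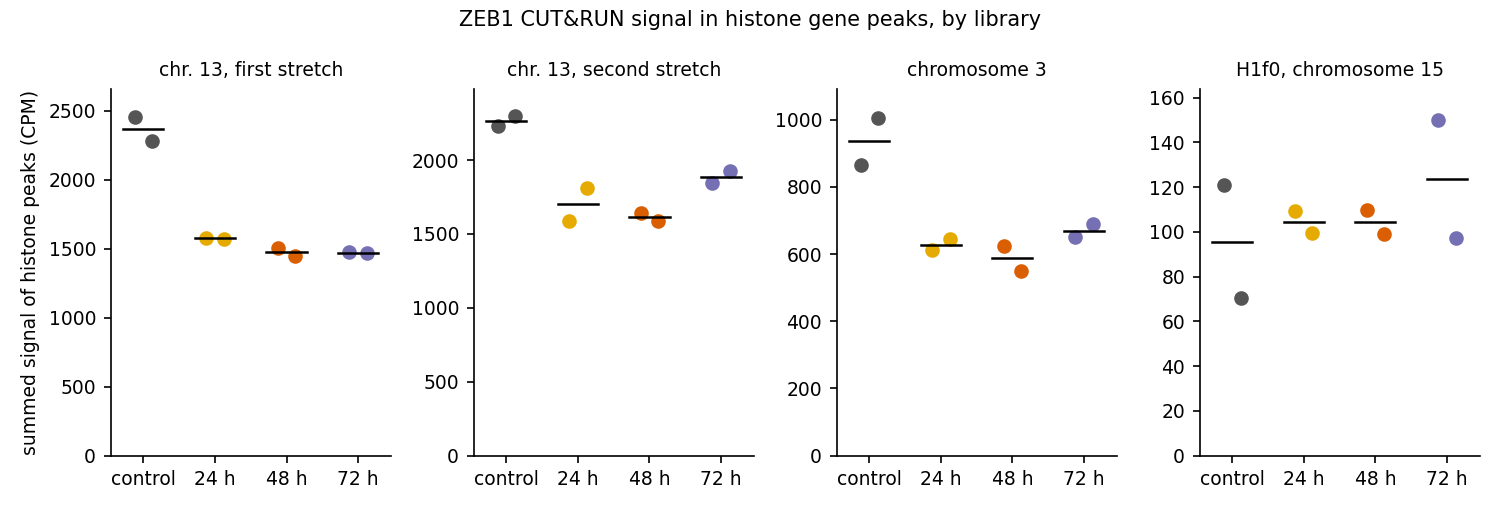
Summed CPM of the histone peaks (vertical axis, from 0) in each of the 8 ZEB1 libraries (points), by group (horizontal axis, bars at the group mean), for the stretches of chromosome 13, chromosome 3 and H1f0. At the first 3 places every treated library lies below both controls, and at H1f0 the treated libraries overlap the controls.

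Of the 56 peaks, 50 held enough counts to be tested, and peak by peak the changes pointed mostly down. Over the mean of the 3 times, 21 of 50 fell and 0 rose (42.0% lower, where 8.53% of all tested peaks were called lower and 8.27% higher). The fitted change was below 0 for 45 of 50, with a median of -0.44 on the log2 scale against -0.01 for all tested peaks. At 27 of the 50, both controls were above all 6 treated libraries, which was so for 12.5% of tested peaks. At 24 h 18 fell and 0 rose (4.61% of all tested peaks were lower and 6.44% higher), at 48 h 20 fell and 0 rose (5.41% lower and 6.09% higher of all), and at 72 h 11 fell and 1 rose (5.74% lower, 6.84% higher), with medians of -0.43, -0.48 and -0.37. The 6 untested peaks were H3c10, H4c11 (a), H4c9, H2bc11, H1f4 and H2ac18. Without the filter on low counts the calls among all 56 were 18, 19, 13 and 22 at 24, 48 and 72 h and for the mean.

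Depth, width and the choice of peaks move with these counts. Among the 1493 tested peaks at least as wide as the median histone peak, 16.8% were lower and 10.1% higher over the mean. Among histone peaks found in all 4 lists, 14 of 32 fell over the mean (43.8%, against 7.85% of the 8201 peaks in all 4 lists), with 11, 13 and 9 at 24, 48 and 72 h. Of the 7 tested histone peaks in the control list alone, 3 fell over the mean, and their choice favours the control. DESeq2's Wald test gave far fewer calls: 7 of 47 histone peaks with an adjusted p over the mean, where it called 231 of 14207 peaks in all, and 3, 5 and 3 at 24, 48 and 72 h. Those 7 were H4c18/H2ac24 (b), H2ac15/H2bc15, H2bc23/H2ac23/H4c17, H3c15/H2ac19, H3c13/H2bc18, H2ac4/H3c2 and H2bc13/H2ac13/H3c10. Without control replicate 2, the deeper control, there were 11 calls over the mean, 10 of them among the 21, and 6, 10 and 4 at the 3 times, of which 6, 10 and 3 were among the calls with all libraries. Without 72 h replicate 1 there were 4 at 72 h.

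**Figure D2:**
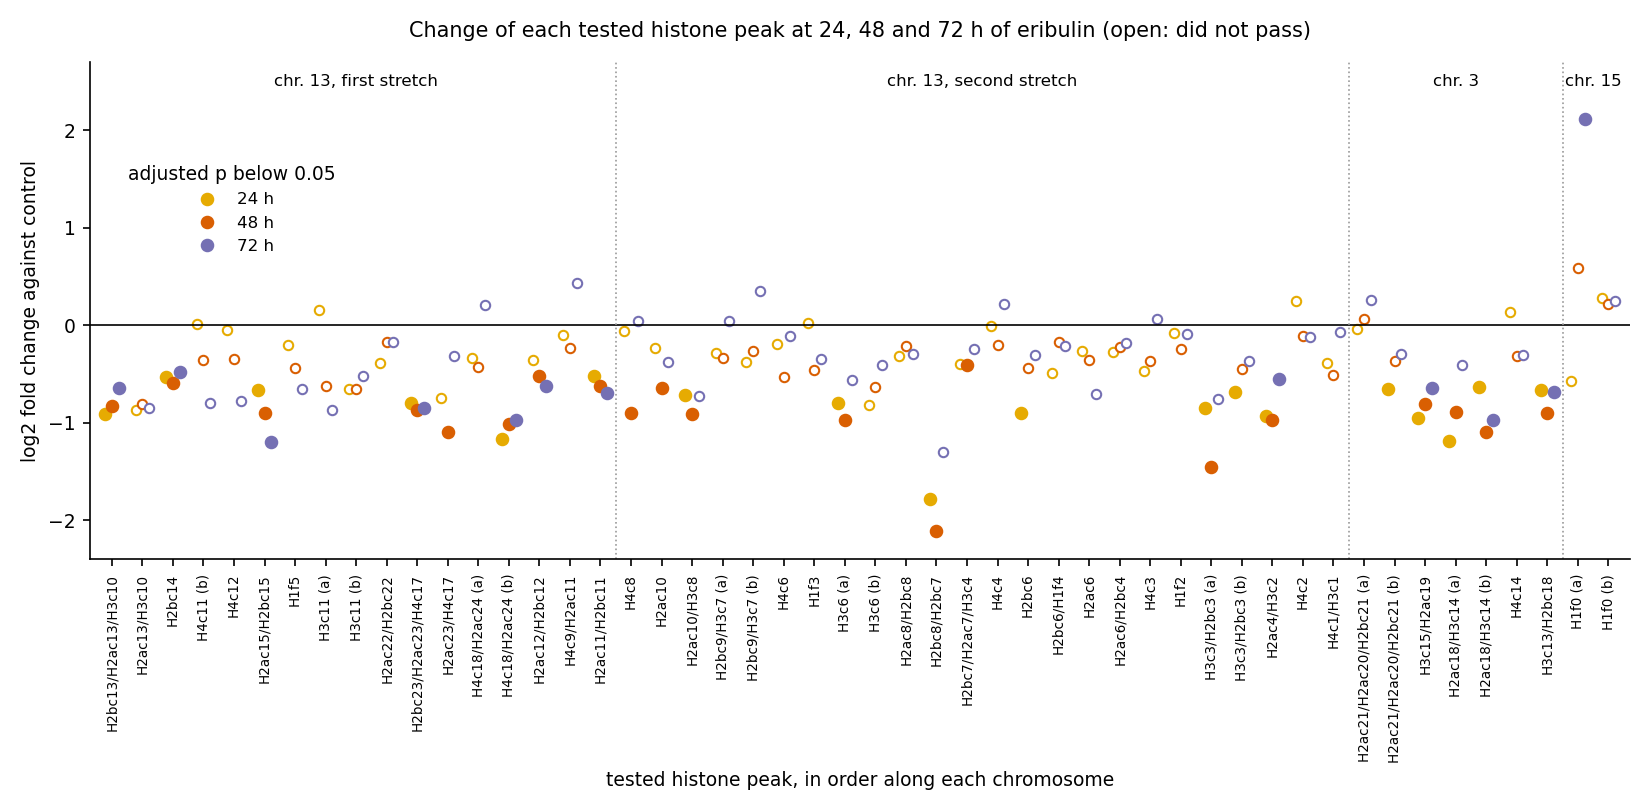
Log2 fold change against control (vertical axis) of each of the 50 tested histone peaks at 24, 48 and 72 h, in order along each chromosome and named by the genes within 1 kb. Filled points have an adjusted p below 0.05, and all of them lie below 0 except the H1f0 (a) peak at 72 h.

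Most of the falls were at peaks beside H2A and H2B genes, the partners of the outer nucleosome dimers, which also make up most of the peaks. Over the mean, 19 of the 32 tested peaks with an H2A or H2B gene within 1 kb fell (median -0.54), as did 2 of 4 with H3 genes alone (median -0.62), 0 of 8 with H4 genes alone (median -0.27) and 0 of 5 with H1 genes alone (median -0.14). The median level was 85.7, 42.7, 51.3 and 93.9 CPM in the same order, and the median SE was 0.169, 0.237, 0.217 and 0.175. The median width was 1022, 576.5, 618 and 1320 bp. Of all tested histone peaks with a gene start of the promoter table inside, 20 of 37 fell over the mean, against 1 of 13 without. The classes were not matched for width or for a start inside. Without control replicate 2 the H2A or H2B falls numbered 10 of 32 and the H3 falls 1 of 4, and by DESeq2 they were 7 of 31 and 0 of 3. The class counts every gene within 1 kb, so peaks on an H3 gene can fall in the H2A or H2B class. Among its fallen peaks, H2ac10/H3c8, H2ac13/H3c10, H2ac18/H3c14 (b) and H3c3/H2bc3 (a) had only an H3 start inside. Grouping by class was chosen after the values were seen, and the difference between classes was not tested.

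Among peaks found in all 4 lists, the largest fall over the mean of the 3 times was over the start of H2ac24, an H2A gene next to H4c18 (-1.05, SE 0.126), at chromosome 13 21832937 to 21834240. This H4c18/H2ac24 (b) peak held 286 and 232 CPM in the controls, 109 and 115 after 24 h, 128 and 121 after 48 h, and 141 and 113 after 72 h. The highest treated library held 141 CPM, below both controls. The changes were -1.17 (SE 0.154, adjusted p = 1.27e-08), -1.01 (SE 0.1496, adjusted p = 3.11e-07) and -0.97 (SE 0.172, adjusted p = 3.23e-05). The H2bc23/H2ac23/H4c17 peak covers the starts of an H2B and an H2A gene, and the H4 gene lies outside it but within 1 kb. This peak went from 292 and 264 CPM to 165, 153, 148, 154, 166 and 135. The groups did not overlap and the mean change was -0.84 (SE 0.119, adjusted p = 6.72e-08). These neighbours share sequence: the H2ac24 promoter window has 233 bases in common with that of H2bc23 and 200 with that of H2ac23, more than the 76 bases of a read, so reads may be divided between them and the place of each count is uncertain.

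H2ac15 and H2bc15, an H2A and H2B gene pair whose promoter is printed above, have no such near copy among the histone promoter windows. Their peak also covers sequence outside these windows, which was not compared with other genes. The H2ac15/H2bc15 peak, at chromosome 13 21752978 to 21754913, held 308 and 254 CPM in the controls, 164 and 181 after 24 h, 164 and 127 after 48 h, and 136 and 97.2 after 72 h. All treated libraries were below both controls, and those at 72 h included the lowest. The change was -0.66 at 24 h (SE 0.142, adjusted p = 5.63e-04), -0.90 at 48 h (SE 0.146, adjusted p = 4.95e-06) and -1.20 at 72 h (SE 0.176, adjusted p = 2.91e-07). The difference of 72 h from 24 h was -0.54 (SE 0.185) and did not pass (adjusted p = 0.0690). Further H2A and H2B pairs on the first stretch of chromosome 13 fell less. H2ac11/H2bc11 held 215 and 255 CPM in the controls and 134 to 172 in the treated libraries (mean change -0.61, SE 0.123, adjusted p = 1.39e-04), and H2ac12/H2bc12 held 160 and 170 against 102 to 132 (-0.50, SE 0.139, adjusted p = 0.00688). H2bc14, an H2B gene with the highest signal per length on the chromosome, held 275 and 261 CPM against 154 to 220 and fell at each time (-0.53, -0.60 and -0.48, with adjusted p = 0.00640, 0.00224 and 0.0310). Without control replicate 2, H2ac11/H2bc11 and H2ac12/H2bc12 did not pass over the mean (adjusted p = 0.170 and 0.252). H2bc14 was not called at 24 h without control replicate 2 or 24 h replicate 2 (0.0867 and 0.144), nor at 72 h without control replicate 1, control replicate 2 or 72 h replicate 2 (0.0844, 0.119 and 0.374). Not all pairs passed: H2ac22/H2bc22 held 162 and 159 CPM against 113 to 153 (-0.24, SE 0.138, adjusted p = 0.221), and H2ac8/H2bc8 held 182 and 188 against 114 to 193 (-0.28, SE 0.138, adjusted p = 0.156).

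**Figure D3:**
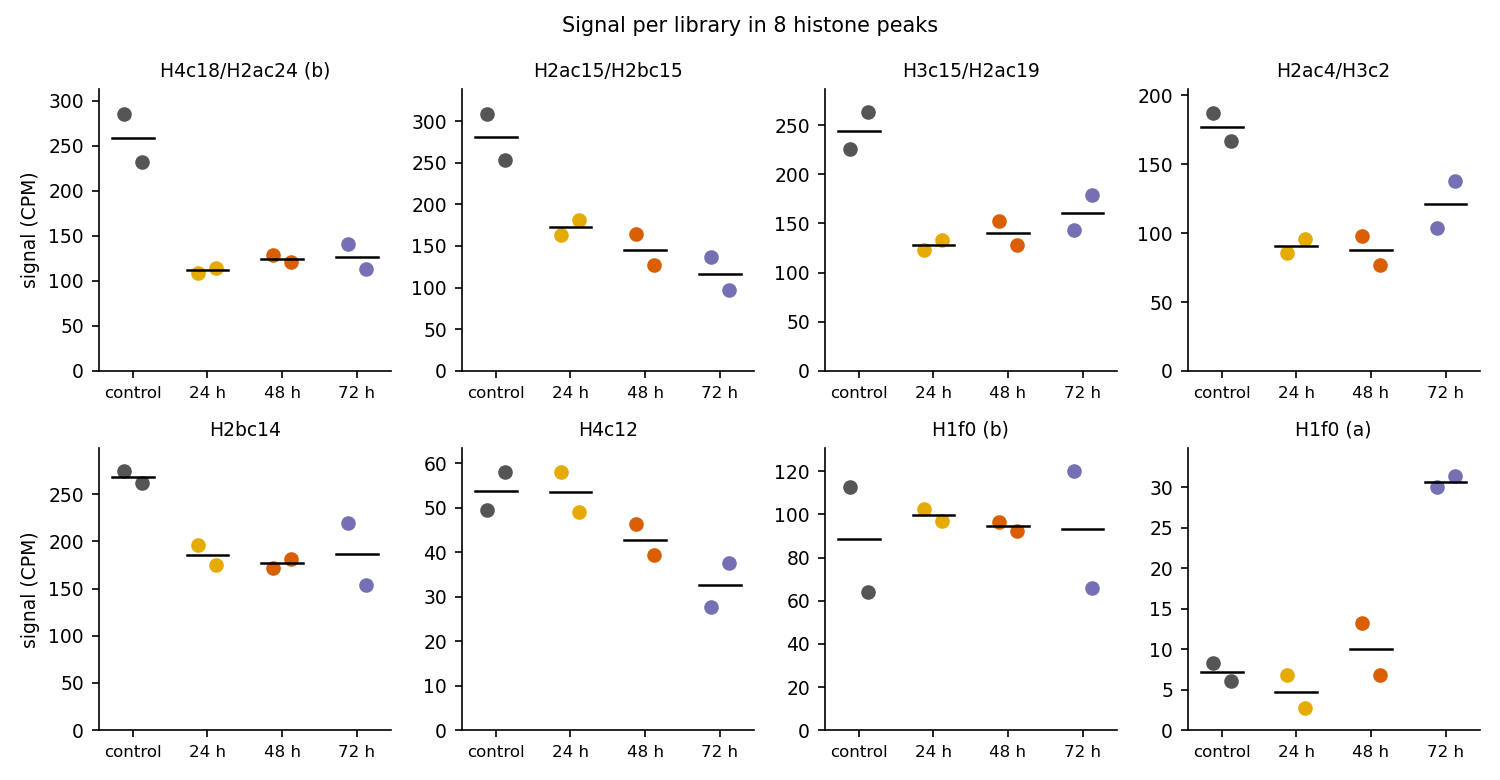
CPM per library (points, vertical axis from 0) and group means (bars) for 8 histone peaks in control and after 24, 48 and 72 h. The first 5 panels show falls in every treated library, H4c12 and H1f0 (b) did not pass, and H1f0 (a) is higher at 72 h than in any other library.

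The 6 tested peaks with both an H2A and an H3 gene beside them, and no other class, all fell over the mean with the 8 libraries (median -0.82). Without control replicate 2, and likewise by DESeq2, 2 of the 6 passed, H3c15/H2ac19 and H2ac4/H3c2. On chromosome 3 these were the copies H3c15/H2ac19 and H2ac18/H3c14. H3c15/H2ac19, at 96238026 to 96240453, held 226 and 263 CPM in the controls, 123 and 134 after 24 h, 152 and 128 after 48 h, and 143 and 179 after 72 h, all below both controls, with changes of -0.95, -0.81 and -0.65 (SE 0.151, 0.147 and 0.165). Its adjusted p was 2.25e-06, 4.68e-05 and 0.00470. The H2ac18/H3c14 (b) peak held 105 and 125 CPM against 71.6, 79.1, 60.9, 47.9, 41.6 and 84.7, a mean change of -0.90 (SE 0.175, adjusted p = 9.14e-05). H2ac18/H3c14 (a), with 63.3 and 102 CPM in the controls and 32.5 to 69.3 in the treated libraries, overlapped at 72 h (mean change -0.83, SE 0.199, adjusted p = 0.00164). Without control replicate 2 the adjusted p over the mean was 0.118 for H2ac18/H3c14 (b) and 0.608 for H2ac18/H3c14 (a), and H3c15/H2ac19 did not pass at 48 and 72 h (0.0531 and 0.167), nor at 72 h without 72 h replicate 1 (0.182). H3c15 and H3c14 share 231 bases of promoter and H2ac19 and H2ac18 share 219, so these counts too may be divided between copies. When the 8 peaks beside genes with such near copies were left out, 16 of 43 tested histone peaks still fell over the mean, and 13, 14 and 7 at 24, 48 and 72 h. Near copies were sought in promoter windows alone, and other sequence under the kept peaks was not compared.

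The other H2A and H3 peaks lay on chromosome 13. H2ac4/H3c2, whose H2A promoter carries the octamer shown above, held 187 and 167 CPM in the controls, 85.3 and 95.5 after 24 h, 97.9 and 77.0 after 48 h, and 104 and 138 after 72 h. The treated libraries were all lower and the fall was -0.94, -0.97 and -0.55 (SE 0.172, 0.173 and 0.187, adjusted p = 5.28e-05, 3.05e-05 and 0.0365). H2ac10/H3c8 held 88.0 and 88.7 CPM against 39.3 to 62.4 (mean change -0.78, SE 0.194, adjusted p = 0.00222). H2ac13/H3c10, a peak of the control list alone, whose choice favours the control, held 49.5 and 39.7 CPM against 12.5 to 32.4 (-0.84, SE 0.278, adjusted p = 0.0252). That call was lost without either control (adjusted p = 0.159 and 0.132), without 24 h replicate 2, 48 h replicate 1 or 72 h replicate 2 (0.0740, 0.0524 and 0.0705), with libraries thinned to 1 depth (0.319) and by DESeq2 (0.350). H2ac10/H3c8 did not pass without control replicate 2 (0.122). Beside H2ac13/H3c10 lay the wider H2bc13/H2ac13/H3c10 peak, over the starts of an H2B and an H2A gene. The H3 gene H3c10 lies outside it but within 1 kb. This wider peak held 182 and 188 CPM against 95.3 to 144 and fell at each time (-0.91, -0.83 and -0.65, adjusted p = 4.88e-05, 2.41e-04 and 0.0129). H3c13/H2bc18 on chromosome 3, an H3 and an H2B gene, held 204 and 225 CPM against 114 to 143 and also fell at each time (-0.66, -0.90 and -0.69, adjusted p = 0.00126, 1.53e-05 and 0.00418). The 72 h calls of H2ac4/H3c2, H2bc13/H2ac13/H3c10 and H3c13/H2bc18 were lost without control replicate 2 (adjusted p = 0.0960, 0.128 and 0.117) and without 72 h replicate 1 (0.448, 0.390 and 0.0683), as was that of H2ac4/H3c2 without control replicate 1 (0.121) and the 24 h call of H3c13/H2bc18 without control replicate 2 (0.139).

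Several falls rest on few counts or on peaks listed in untreated cells alone. A peak of the control list alone is a histone peak only through the group where it is high, so its p is no independent evidence. H2bc8/H2bc7, between a pair of H2B genes, had 11 and 16 counts in the controls and 2 to 6 in a treated library, and its mean change of -1.73 (SE 0.420, adjusted p = 0.00189) was the largest of any histone peak. Its CPM were 30.3 and 24.5 against 6.82, 8.19, 2.65, 10.3, 9.25 and 12.5, with no overlap. It was in the control list alone, DESeq2 gave it no adjusted p, and without control replicate 2 it did not pass (adjusted p = 0.0562). H3c3/H2bc3 (a), also of the control list alone, held 74.3 and 67.3 CPM against 17.1 to 50.8 (-1.02, SE 0.225, adjusted p = 5.84e-04). H2ac23/H4c17, of the same kind, fell at 48 h (-1.09, SE 0.346, adjusted p = 0.0249) from 60.5 and 33.6 CPM to 23.8 and 15.4, but its groups overlapped at 24 and 72 h. H2bc6 fell at 24 h (-0.90, SE 0.256, adjusted p = 0.0124), from 71.5 and 70.3 CPM to 37.5 and 38.2, and was at -0.30 (SE 0.269) at 72 h. The second H2ac21/H2ac20/H2bc21 peak of chromosome 3 fell at 24 h (-0.66, SE 0.198, adjusted p = 0.0192) from 107 and 121 CPM to 68.2 and 77.8, while its 72 h libraries held 90.1 and 100.4. These single-time calls of H2bc6 and H2ac21/H2ac20/H2bc21 (b) were lost without control replicate 2 (adjusted p = 0.159 and 0.322) and without either 24 h library, and that of H2ac23/H4c17 without control replicate 1 (0.288) or 48 h replicate 2 (0.164).

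Peaks beside H3 genes alone gave 2 falls among 4 tested, with 1 of 4 when either control was left out, and 0 of 3 with an adjusted p both by DESeq2 and with libraries thinned to 1 depth. At H3c6 (a), which covers the start of an H3 gene, the controls held 127 and 119 CPM, 24 h held 76.7 and 64.1, 48 h held 52.9 and 73.6, and 72 h held 90.1 and 72.1. The treated libraries were all lower, with a change of -0.80 at 24 h and -0.97 at 48 h (SE 0.198 and 0.203, adjusted p = 0.00324 and 4.80e-04) and -0.56 at 72 h (adjusted p = 0.0756). H3c11 (b) fell over the mean (-0.61, SE 0.210, adjusted p = 0.0317), from 82.5 and 64.2 CPM to between 39.7 and 59.6, and did not pass without control replicate 1 (0.238), control replicate 2 (0.108) or 72 h replicate 1 (0.0971). H3c6 (a) passed over the mean with either control left out, but not at 24 h without control replicate 2 (0.0712) or 24 h replicate 2 (0.104), nor at 48 h without 48 h replicate 1 (0.0518).

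Peaks beside H4 genes alone, the partners of H3 in the nucleosome core, did not pass over the mean: 0 of 8 tested fell or rose in edgeR, with 0 of 8 by DESeq2 as well, and the median was -0.27 with changes between -0.39 and 0.00. H4c12, whose promoter is printed above, held 49.5 and 58.1 CPM in the controls, 58.0 and 49.1 after 24 h, 46.3 and 39.3 after 48 h, and 27.7 and 37.6 after 72 h. The 24 h libraries overlapped the controls and those at 48 and 72 h lay below them, and the changes were -0.05, -0.35 and -0.78 (SE 0.253, 0.264 and 0.332, adjusted p = 0.925, 0.424 and 0.106). H4c2 held 27.5 and 27.5 CPM against 18.5 to 34.5 (mean change 0.00, SE 0.317, adjusted p = 0.999). H4c14 on chromosome 3 held 113 and 124 CPM against 78.4 to 132 (-0.16, SE 0.156, adjusted p = 0.512). With all counts kept, the single H4 call at any time was H4c8 at 48 h (-0.90, SE 0.272, adjusted p = 0.0182), where the controls themselves stood apart at 41.3 and 79.5 CPM and the 48 h libraries held 33.1 and 37.6. It did not pass without control replicate 2 (0.825) or 48 h replicate 1 (0.136).

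Linker histone peaks in the clusters did not pass either. H1f5 held 88.0 and 112 CPM in the controls and 55.5 to 96.9 in treated libraries (mean change -0.43, SE 0.175, adjusted p = 0.0717). H1f3 held 132 and 153 against 92.4 to 177 (-0.26, SE 0.149, adjusted p = 0.231), and H1f2 held 96.3 and 119 against 88.7 to 117 (-0.14, SE 0.160, adjusted p = 0.574).

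**Figure D4:**
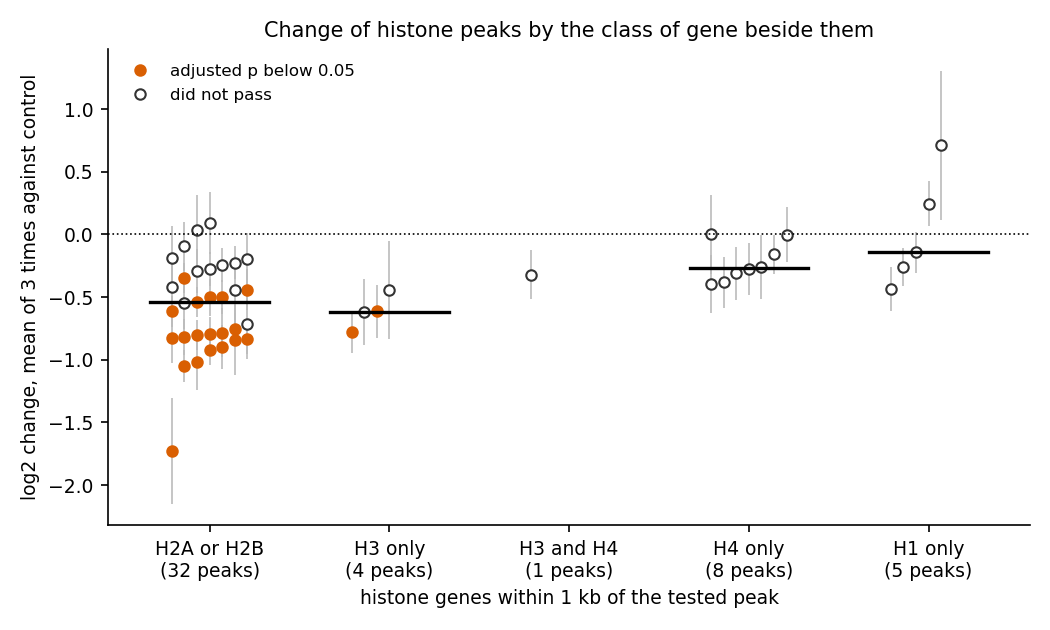
Log2 change over the mean of the 3 times (vertical axis; grey bars are the SE) of the 50 tested histone peaks, grouped by the class of histone gene within 1 kb, with the median as a black bar where a group has more than 1 peak. Filled points have an adjusted p below 0.05: 19 of 32 beside H2A or H2B genes, 2 of 4 beside H3 genes alone, and none of the 8 with H4 alone or the 5 with H1 alone.

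H1f0, the linker histone gene outside the clusters, held the only histone peak that rose. The H1f0 (a) peak, at chromosome 15 79028403 to 79028605 with its centre 292 bp after the gene's start, held 8.25 and 6.11 CPM in the controls, 6.82 and 2.73 after 24 h, 13.2 and 6.84 after 48 h, and 30.0 and 31.4 after 72 h. Only the 72 h libraries stood above the rest, and they hold 13 and 10 counts against 2 to 10 in the others. The change was -0.57 at 24 h (SE 0.811), 0.59 at 48 h (SE 0.672) and 2.12 at 72 h (SE 0.585, adjusted p = 0.00960). This peak is in the 72 h list alone, so its choice favours that time, and it lost the call without control replicate 2 (adjusted p = 0.151) and without 72 h replicate 1 (adjusted p = 0.0806). H1f0 (b), beyond the gene's end, was in every list and held 113 and 64.2 CPM in the controls and 65.9 to 120 in the treated libraries, with overlap throughout (mean change 0.25, SE 0.182, adjusted p = 0.364).

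Summed signal was lower in the drug in each of the 3 clusters, and no test was made between clusters. The first stretch of chromosome 13 summed to 2450 and 2279 CPM in the controls, 1579 and 1570 after 24 h, 1508 and 1447 after 48 h, and 1479 and 1465 after 72 h. Its group means were 66.6%, 62.5% and 62.2% of control. The second stretch summed to 2228 and 2299 CPM, then 1589 and 1812, 1642 and 1589, and 1847 and 1929, which are 75.1%, 71.4% and 83.4% of control. The chromosome 3 group summed to 866 and 1004 CPM, then 612 and 644, 623 and 551, and 649 and 690, or 67.1%, 62.8% and 71.6%. In both stretches and on chromosome 3 every treated library lay below both controls. The sums include peaks of the control list alone, whose choice favours the control: 7 of 21 in the first stretch, 3 of 25 in the second and 1 of 8 on chromosome 3.

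Counted by peak, the first stretch of chromosome 13 had 6, 8 and 7 falls among 17 tested at 24, 48 and 72 h, the second 7, 8 and 1 among 24, and chromosome 3 had 5, 4 and 3 among 7. Of all tested peaks 4.61%, 5.41% and 5.74% were lower at these times. At 72 h the second stretch, with 4.17%, was not above that share. The single peak of the second stretch that passed at 72 h was H2ac4/H3c2. Medians at 72 h were -0.66, -0.27 and -0.41. These counts share the control libraries. They include peaks of the control list alone, whose choice favours the control: H2bc8/H2bc7 and H3c3/H2bc3 (a) in the second stretch at 24 and 48 h, and H2ac23/H4c17 in the first at 48 h. They also count H3c15/H2ac19 and H2ac18/H3c14 (a) and (b) on chromosome 3, and H4c18/H2ac24 (b) and H2bc23/H2ac23/H4c17 in the first stretch, whose reads may be divided between copies. The test that bears on a difference between times is 72 h against 24 h. In it 0 of 50 histone peaks fell and 1 rose (background 2.39% lower and 2.32% higher), namely H1f0 (a), and none in the second stretch passed, where the median was 0.19. The largest rise there from 24 to 72 h that did not pass was at H2bc9/H3c7 (b), from 46.0 and 61.4 to 90.1 and 91.0 CPM (0.73, SE 0.242, adjusted p = 0.0586). DESeq2 called 0 histone peaks in this comparison, as did edgeR without 24 h replicate 2.

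On chromosome 11 no member was found, but histone genes with other symbols lie there. The peak at H2aw, an H2A gene, at 58954179 to 58955170, held 104 and 127 CPM in the controls and 90.04 to 120 in the treated libraries, which overlapped (mean change -0.22, SE 0.156, adjusted p = 0.352). That at H2bu2, an H2B gene, held 19.3 and 9.17 CPM against 11.98 to 25.6 (0.55, SE 0.415, adjusted p = 0.380). H3f4, the third of these genes, had no peak within 1 kb.

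Peaks at genes that serve the histone genes were counted in the same way. Over the mean, 8.53% of all tested peaks were lower and 8.27% higher, so few calls would be met in lists this short. Of 25 tested peaks near genes of the histone locus body and of the 3′ end processing of histone messages, 0 fell and 1 rose over the mean (median 0.04): Zfp473, which encodes a zinc-finger protein of histone message processing, with 85.3 and 70.3 CPM in the controls and 95.3 to 138 in the treated libraries (0.53, SE 0.176, adjusted p = 0.0262). Of 14 peaks at variant histone genes that are mostly made outside DNA replication, H1f0, H2aw and H2bu2 among them, 0 fell and 1 rose (median 0.16), at H2az1 (1.64, SE 0.4218, adjusted p = 0.00340). Of 30 peaks at histone chaperone genes 0 fell and 2 rose (median 0.11), both at Ssrp1, a subunit of the FACT chaperone (1.09 and 0.76, adjusted p = 0.0408 and 0.00330). Of 37 at genes of DNA replication and of the cyclin E and CDK2 switch, 1 fell and 1 rose (median -0.13), at the replication licensing gene Cdc6 (-0.67, SE 0.226, adjusted p = 0.0306) and the thymidine kinase gene Tk1 (0.90, SE 0.317, adjusted p = 0.0360). Whether these lists differ from the histone peaks was not tested.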

How the data were processed

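ZEB1 CUT&RUN (EpiCypher CUTANA kit, paired-end 76 bp, per the labels' protocols) was analysed in 8 libraries of 4 groups. Bowtie2 2.2.6, MACS2 2.1.1, bedtools 2.30.0, featureCounts, cutadapt 2.4, Picard, deepTools, bcl2fastq 2.20.0.422 and the build GRCm38 (mm10) appear in the submitters' processing notes, with settings not given in the sources used here. Raw counts per consensus peak were deposited, with no scaling by the authors. For each group a deposited peak list gives the authors' fold over IgG (a linear ratio) and the −log10 of each peak's q-value. The part of replicate 2 in these lists is unknown here. The IgG library entered no test.

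Counts were fitted with edgeR 4.0.16 in R 4.3.3 (filterByExpr by group, TMM, 1 mean per group over all 8 libraries, robust quasi-likelihood F-tests with 4 residual degrees of freedom), which tested 21192 of 23623 peaks (89.7%). Benjamini-Hochberg adjustment ran over all tested peaks. The SE is the absolute log2 change divided by the square root of F. The code was tested on simulated counts with known changes. Alternatives were other scalings, no filter, DESeq2 1.42.0, libraries thinned to 326944 counts, the control, 24 h and 72 h replicate pairs summed, each replicate left out, and the replicate number as a block. Genes and promoters came from RefSeq GRCm38.p6 tables, and 5 of the 67 genes had no promoter entry. The members, the gene lists, the tests and the alternatives were chosen with earlier results of these data known. Peaks named with values were, per comparison with control, the 10 called with the largest change, the highest per length and most changed in each cluster, and H1f0. The other peaks named were chosen after their values were seen. In the other gene lists up to 4 called peaks with the largest change were named, and H3f5 and H3-5 were not matched.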

Additional observations from a re-analysis of the deposited data

Results flagged for a closer look

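The difference between 72 h and 24 h of eribulin passed the test at 1 histone peak, H1f0 (a), which was 2.69 higher on the log2 scale at 72 h (SE 0.598, adjusted p = 0.00307 in edgeR's quasi-likelihood test). It held 6.82 and 2.73 CPM at 24 h and 30.0 and 31.4 at 72 h, and rests on 4 and 2 counts against 13 and 10. It is a histone peak only through the 72 h list, where it is high, so this p is no independent evidence. Without 24 h replicate 2, and by DESeq2, 0 histone peaks passed. Groups of 2 libraries are too small for a check of single libraries that stand apart.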

How the results depend on the processing

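The counts of called histone peaks, 18, 20, 12 and 21 at 24, 48 and 72 h and for the mean, and 1 for 72 h against 24 h, were lowest with DESeq2, which gave 3, 5, 3, 7 and 0, and each of its calls was also one of edgeR's. With libraries thinned to the smallest total there were 11 calls at 24 h and 13 at 48 h. Leaving out 1 replicate at a time gave 6 to 19, 10 to 20, 4 to 16, 11 to 23 and 0 to 2 calls, with the lowest count in the 4 comparisons with control when control replicate 2 was left out. Scaling from peaks in all 4 lists gave 3 calls for 72 h against 24 h, 2 lower and 1 higher, and without 48 h replicate 1 there were 1 lower and 1 higher. Alternatives chosen after seeing the data were the peaks found in all 4 lists (11 at 24 h, 13 at 48 h and 0 for 72 h against 24 h) and leaving out near-identical promoters. Summing the replicate pairs of control, 24 h and 72 h, each then 1 sample assumed to vary like the 48 h pair, which was kept as 2, gave 18, 17, 11 and 20. With the replicate block the counts were 18, 19, 14, 21 and 1, and the numbers do not pair the libraries, since the differences of replicates 1 and 2 correlated between groups at -0.0287 to 0.00116. No listed result changed direction while called. Keeping listed peaks whose −log10 q reached 5, the lists held 46, 30, 34 and 27 histone peaks, 21 of them in all 4. Peaks with few counts limit what a change of moderate size can show.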
